A study of Mus musculus with 6 samples.

Results

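This section describes 41 genes that copy DNA or supply its building blocks, picked by symbol from the 56748 genes of an RNA sequencing table of mouse airway basal cells. Each of the 41 symbols matched a single gene, and all 41 passed the filter on low values, which kept genes averaging 10 or more normalized counts across the 6 libraries. A normalized count is a gene's number of reads divided by the size factor of its library. The cells were primary epithelial cells of wild-type (WT) mouse trachea, labelled as airway basal stem cells, the cells from which the airway lining is renewed, and were cultured for 4 days. Cells of 3 libraries had received UK-5099, which blocks the carrier that brings pyruvate into mitochondria. Cells of the other 3 libraries had received Y-27632, a kinase inhibitor, together with A8301 and DMH-1, which block type I receptors of TGF-beta and of BMP. No untreated group is described, so a difference does not say which condition moved. The labels give no sex or age of the animals and leave it unclear if UK-5099 was given alone. They do not tie replicates to different animals or dishes, and the p-values therefore reflect library-to-library spread that may be technical. Of 10 basal cell markers, 9 passed the filter on low values and 1, Nppc, did not. Krt5 and Trp63 held mean normalized counts of 118710 and 5521 with UK-5099 and of 39445 and 3242 with the 3 inhibitors, whereas Ngfr held 65.8 and 304. The libraries held between 19909589 and 27037795 gene reads.

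DNA replication starts at origins, where the origin recognition complex, Cdc6 and Cdt1 load the Mcm2 to Mcm7 ring onto DNA before S phase. Cdc45 and the GINS complex then turn the ring into a moving helicase, polymerase alpha with primase lays down primers, polymerases delta and epsilon extend them, and the sliding clamp Pcna, loaded by replication factor C, holds the polymerases on the template. Ribonucleotide reductase, thymidine kinase and thymidylate synthase provide deoxynucleotides. Many of these genes are textbook targets of E2F transcription factors, which are held back by RB-family proteins outside the cell cycle, and basal cells divide to expand in culture.

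Transcripts of nearly the whole replication machinery were more abundant with UK-5099 than with the 3 inhibitors. Of the 41 genes, 37 were higher at an adjusted p under 0.05 (limma, Benjamini-Hochberg over the 15704 genes tested), against a background of 27.2% of all genes tested (53.8% in either direction). None was lower, against 26.6% of all genes tested, and the count was also 0 at an unadjusted p under 0.05 and with limma-voom on recovered reads. The median log2 fold change of the 41 genes, UK-5099 minus 3 inhibitors, was 0.75, a 1.68-fold difference, and the median over all genes tested was -0.0005. Among the 37, 24 were at least 1.5-fold higher (10.5% of all genes tested) and 6 at least 2-fold higher (4.67% of all genes tested). In all 3 UK-5099 libraries 38 of the 41 genes stood above all 3 libraries of the other group, as did 30.7% of all genes tested. None of the 41 lay below in all 3, against 30.1% of all genes tested. Added up, the 41 genes made 46643, 43046 and 44073 normalized counts in UK-5099 replicates 1, 2 and 3, and 28991, 28566 and 27103 in the 3-inhibitor replicates, or 0.185% against 0.117% of all normalized counts. These bulk values cannot tell a larger share of cells in S phase from more transcript per cell.

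**Figure D1:**
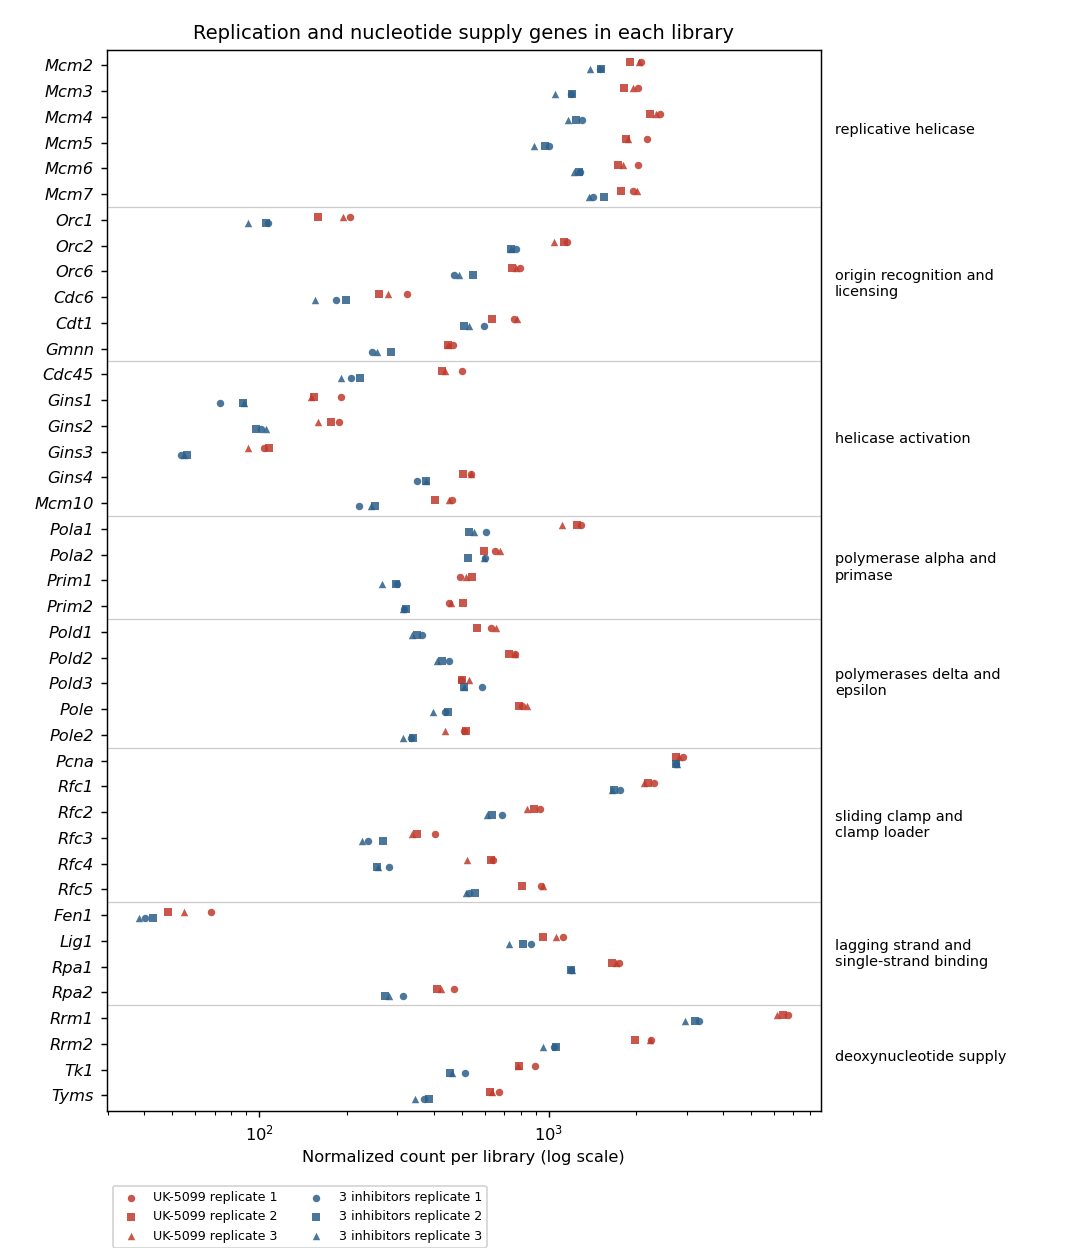
Normalized count of each of the 41 genes in each library, on a log axis, grouped by role; colours stand for the group and symbols for the replicate number. The groups overlap for Pola2, Pold3 and Pcna, and for each of the other 38 genes the 3 UK-5099 points lie to the right.

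Promoter windows of RefSeq (GRCm38.p6), from 250 bases before to 50 after each gene start, were also searched for E2F words. Many of these genes are textbook E2F targets, so the share with a word reflects the choice of genes and says nothing about the 2 conditions. The table held windows for 33 of the 41 genes. The words were TTTCCCGC, TTTCGCGC, TTTGCCGC and TTTGGCGC on both strands, and words on opposite strands can overlap each other. At least 1 word was in a window of 14 of the 33 genes (42.4%), and in windows of 704 of all 27025 genes (2.60%), or 744 of 32851 windows (2.26%). In this paragraph all genes means every gene with a window, without the filter on low values, unlike the 15704 genes tested. CCAAT boxes, searched as CCAAT on both strands, were in windows of 21 of the 33 genes (63.6%) and of 41.1% of all genes, or 37.4% of all windows. The cell cycle homology region of mitotic genes, searched as TTTGAA on both strands, was in windows of 5 of the 33 genes (15.2%) and of 20.2% of all genes, or 17.9% of all windows. The 14 genes with an E2F word had a median log2 fold change of 0.62, and the 19 without one a median of 0.75. Their ranges overlapped, from -0.07 to 1.11 and from 0.04 to 1.17, and the difference was not tested. A match describes the letters of a window and not a bound site, and its absence says only that these letters are not in it.

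The windows of 6 genes are given here with E2F words in capitals. Those of Mcm5, Mcm6, Pola1 and Pold3 show such words beside large, medium and no detected differences, and those of Pola2 and Pcna hold no word. Mcm5 (chr8:75109259-75109558, plus strand) and Mcm6 (chr1:128359656-128359955, minus strand) encode helicase subunits. In both, words on opposite strands overlap, and Mcm6 holds a further word 47 bases before the start.
Mcm5: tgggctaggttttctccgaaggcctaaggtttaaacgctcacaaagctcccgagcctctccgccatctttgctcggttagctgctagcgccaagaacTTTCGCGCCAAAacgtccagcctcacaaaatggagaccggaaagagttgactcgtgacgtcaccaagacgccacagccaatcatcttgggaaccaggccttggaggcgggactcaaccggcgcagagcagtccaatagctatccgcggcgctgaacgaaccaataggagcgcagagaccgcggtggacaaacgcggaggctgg
Mcm6: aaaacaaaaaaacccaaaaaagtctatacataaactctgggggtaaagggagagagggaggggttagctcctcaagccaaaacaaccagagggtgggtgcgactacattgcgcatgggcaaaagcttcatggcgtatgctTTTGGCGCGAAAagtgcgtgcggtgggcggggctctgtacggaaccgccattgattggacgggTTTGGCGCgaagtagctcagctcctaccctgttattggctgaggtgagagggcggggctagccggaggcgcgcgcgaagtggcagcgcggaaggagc
Pola1 (chrX:93632106-93632405, minus strand) and Pola2 (chr19:5964157-5964456, minus strand) encode the large and the second subunit of polymerase alpha, of which only the window of Pola1 holds a word.
Pola1: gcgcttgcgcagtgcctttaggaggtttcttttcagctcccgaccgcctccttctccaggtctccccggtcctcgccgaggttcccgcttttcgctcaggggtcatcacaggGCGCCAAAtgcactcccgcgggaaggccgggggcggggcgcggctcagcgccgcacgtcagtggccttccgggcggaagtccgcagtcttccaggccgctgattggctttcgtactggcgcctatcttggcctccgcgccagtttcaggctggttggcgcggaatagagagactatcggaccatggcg
Pola2: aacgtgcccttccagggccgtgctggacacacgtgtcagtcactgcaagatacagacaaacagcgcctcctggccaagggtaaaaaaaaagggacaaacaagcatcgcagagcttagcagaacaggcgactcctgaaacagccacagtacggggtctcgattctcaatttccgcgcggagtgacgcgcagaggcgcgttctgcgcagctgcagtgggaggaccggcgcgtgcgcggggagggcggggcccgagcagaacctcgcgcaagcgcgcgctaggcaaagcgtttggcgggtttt
Pold3 (chr7:100121453-100121752, minus strand), a subunit of polymerase delta, holds a word just after its start, and Pcna (chr2:132253131-132253430, minus strand) holds none.
Pold3: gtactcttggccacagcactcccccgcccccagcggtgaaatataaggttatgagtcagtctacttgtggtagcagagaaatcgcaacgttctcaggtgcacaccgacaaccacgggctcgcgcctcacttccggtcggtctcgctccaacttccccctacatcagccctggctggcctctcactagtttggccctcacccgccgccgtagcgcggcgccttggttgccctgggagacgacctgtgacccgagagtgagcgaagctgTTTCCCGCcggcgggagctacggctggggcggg
Pcna: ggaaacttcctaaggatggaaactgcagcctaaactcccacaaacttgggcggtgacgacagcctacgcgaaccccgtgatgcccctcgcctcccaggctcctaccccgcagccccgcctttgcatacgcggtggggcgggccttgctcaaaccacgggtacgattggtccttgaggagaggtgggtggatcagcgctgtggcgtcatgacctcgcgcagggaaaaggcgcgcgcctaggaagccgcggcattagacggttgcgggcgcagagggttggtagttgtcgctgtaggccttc

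The 6 subunits of the replicative helicase, the ring that unwinds DNA at the fork, were all higher with UK-5099, between 1.33-fold and 2.07-fold. Mcm5 stood at 2189.5, 1855 and 1878 normalized counts in UK-5099 replicates 1, 2 and 3, and at 1001, 972 and 886 in the 3-inhibitor replicates. Every UK-5099 value thus lay far above the other group, and the log2 fold change was 1.05 ± 0.07 (SE; adjusted p = 2.77e-07, limma). Mcm4, the next in size, held 2432, 2247 and 2348 against 1299.8, 1246 and 1161 normalized counts. Mcm7 had the smallest difference of the ring, with 1962, 1783 and 2016 against 1417, 1550.4 and 1377, a log2 fold change of 0.41 ± 0.06. Its groups still did not overlap. Mcm2, Mcm3 and Mcm6 had log2 fold changes of 0.46, 0.75 and 0.56. Per kilobase of merged exon (GENCODE M21), the 6 subunits spanned 425 to 653 normalized counts with UK-5099 and 276 to 489 with the 3 inhibitors. The highest was thus 1.54 times the lowest with UK-5099 and 1.77 times with the 3 inhibitors. Of Mcm7's sequence, 16.5% of 50-base words recur in a pseudogene, Gm5487, that held a mean of 14.1 normalized counts.

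All 6 genes of origin recognition and licensing were higher, with a median log2 fold change of 0.65. Orc1, the subunit of the origin recognition complex whose level cycles, held 206, 159.6 and 195 normalized counts with UK-5099 and 107, 105 and 91.4 with the 3 inhibitors. This was the largest difference of the group (log2 fold change 0.87 ± 0.13, SE; adjusted p = 0.000187, limma). Orc2 and Orc6, further subunits of that complex, were 1.48-fold and 1.54-fold higher. Cdc6 and Cdt1, which load the ring together, had log2 fold changes of 0.67 ± 0.12 and 0.41 ± 0.09. Geminin (Gmnn), the protein that binds Cdt1 and stops origins from being licensed again, stood at 467, 448 and 449 against 244, 285 and 255 normalized counts. It was 1.74-fold higher, and Cdt1 1.32-fold. Exons of Orc2 overlap those of Nif3l1 on the opposite strand over 24.0% of their length in GENCODE M21, and whether reads were counted by strand is not given in the sources used here.

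Genes that activate the loaded helicase were higher in 6 of 6 cases, with a median of 1.83-fold. Cdc45, which binds the ring to form the active helicase, differed most, with 499.9, 428 and 438 against 207, 223 and 191 normalized counts. Each UK-5099 library lay well above each library of the other group (log2 fold change 1.13 ± 0.09, SE; adjusted p = 1.31e-06, limma). Mcm10, which is needed for the switch to a moving fork, held 461, 404 and 451 against 222, 251 and 243. The 4 GINS subunits, which form a single complex, had log2 fold changes of 0.98 (Gins1), 0.78 (Gins2), 0.86 (Gins3) and 0.52 (Gins4). Gins2 is uncertain, because 70.7% of its exon length overlaps Gse1 on the opposite strand. Gse1 itself was 2.42-fold lower with UK-5099, at 359 ± 64.5 against 860.3 ± 28.9 normalized counts (SD, n = 3).

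The subunits of polymerase alpha and primase, the enzyme that starts each new strand, differed unequally. Pola1, its catalytic subunit, held 1295, 1254 and 1113 normalized counts with UK-5099 and 607, 532 and 553 with the 3 inhibitors. Pola2, the accessory subunit that binds Pola1, held 651, 596 and 678 against 602, 525 and 597. The values of Pola1 lay apart, whereas those of Pola2 overlapped. The log2 fold change of Pola1 was 1.11 ± 0.07 (SE; adjusted p = 2.08e-07, limma), and that of Pola2 was 0.16 ± 0.07 with a 95% confidence interval from -0.01 to 0.33 (adjusted p = 0.0944, limma). The adjusted p of Pola2 was 0.0405 after upper-quartile rescaling and 0.0346 when UK-5099 replicate 2 was left out (log2 fold change 0.21), and it spanned 0.0346 to 0.439 over the alternatives (limma). The primase subunits Prim1, which makes the RNA primer, and Prim2 were 1.80-fold and 1.49-fold higher.

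Of the polymerases that copy the bulk of the genome, 4 of 5 subunit genes were higher. Pole, the catalytic subunit of polymerase epsilon on the leading strand, held 811, 788 and 844 against 438, 449 and 398 normalized counts, a 1.90-fold difference. Its partner Pole2 was 1.49-fold higher. Pold1, the catalytic subunit of polymerase delta on the lagging strand, and Pold2, an accessory subunit, were each close to 1.75-fold higher, at log2 fold changes of 0.81 ± 0.08 and 0.80 ± 0.06. Pold3, a subunit of polymerase delta that can bind Pcna, held 497, 503 and 529.8 normalized counts with UK-5099 and 588, 510.3 and 509 with the 3 inhibitors. These values overlapped, and the log2 fold change was -0.07 with a 95% confidence interval from -0.23 to 0.10 (adjusted p = 0.471, limma). That interval lies below the 0.64 of Pold1's lower bound.

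Pcna, the sliding clamp that is often used as a marker of proliferating cells, did not pass the test. Its 6 values were 2902, 2751 and 2830.4 with UK-5099 and 2759, 2751 and 2765 with the 3 inhibitors, so the groups overlapped. The 95% confidence interval of its log2 fold change ran from -0.05 to 0.12 around 0.04 (adjusted p = 0.491, limma), below the lower bound of each clamp loader gene. Per kilobase of exon Pcna was the most abundant of the 41 genes, at 1863 and 1817 normalized counts in the groups, against medians of 297 and 200.3 over the 41. A processed pseudogene, Pcna-ps2, holds 19.1% of its 50-base words, and between 10.9% and 12.7% of the reads of both loci were assigned to it per library. With the copy added, the sums were 3325, 3152 and 3207 against 3105, 3140.2 and 3103, on average 1.04-fold.

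All 5 clamp loader genes were higher with UK-5099. Rfc4 had the largest log2 fold change of the 41 genes, 1.17 ± 0.09 (SE; adjusted p = 8.77e-07, limma), with 640.1, 632 and 521 against 280.4, 255 and 258 normalized counts. Rfc1, the large subunit that opens the clamp, moved least, with 2314, 2211 and 2133 against 1769, 1680.0 and 1658, a 1.30-fold difference. Rfc2, Rfc3 and Rfc5, further small subunits, were 1.37-fold, 1.49-fold and 1.68-fold higher. In GENCODE M21 exons of Rfc2, Rfc4 and Rfc5 overlap a gene on the opposite strand over 19.1%, 13.4% and 15.4% of their length.

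Genes that finish lagging strands and coat single-stranded DNA differed less, with a median of 1.40-fold. Lig1, the ligase that seals Okazaki fragments, held 1119.6, 959 and 1057 against 869, 813 and 729.9 normalized counts. Rpa1 and Rpa2, subunits of the single-strand binding complex, were 1.42-fold and 1.51-fold higher. Fen1, the nuclease that trims the fragments, had the lowest counts of the 41 genes, with 68.1, 48.3 and 54.8 against 40.2, 42.9 and 38.4. These values did not overlap, but the difference did not pass the test (log2 fold change 0.47 ± 0.20, adjusted p = 0.0614, limma). It passed after upper-quartile rescaling (adjusted p = 0.0479), without the variance trend (adjusted p = 0.0309) and when UK-5099 replicate 2 was left out (0.58, adjusted p = 0.0393), and its adjusted p spanned 0.0309 to 0.224 (limma). Its level is uncertain, because 78.8% of its exon length overlaps an antisense gene, Gm10143, and 5.37% overlaps Tmem258. Gm10143 held only 10.9 and 5.65 normalized counts on average.

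The 4 genes of deoxynucleotide supply were all at least 1.72-fold higher. Ribonucleotide reductase, which makes deoxynucleotides from ribonucleotides, has a large subunit, Rrm1, and a small one, Rrm2, made in S phase. Rrm1 held 6733, 6430.4 and 6165 normalized counts with UK-5099 and 3296, 3212 and 2951 with the 3 inhibitors. Rrm2 held 2265, 1983 and 2234 against 1040.0, 1063 and 957. In both genes the lowest UK-5099 value was far above the highest of the other group. Tk1, the cytosolic thymidine kinase that salvages thymidine, was 1.72-fold higher, with 897, 787 and 782 against 515, 455 and 462. Thymidylate synthase (Tyms), which makes dTMP anew, was 1.76-fold higher, with 672, 627 and 638 against 370.0, 384 and 344.

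**Figure D2:**
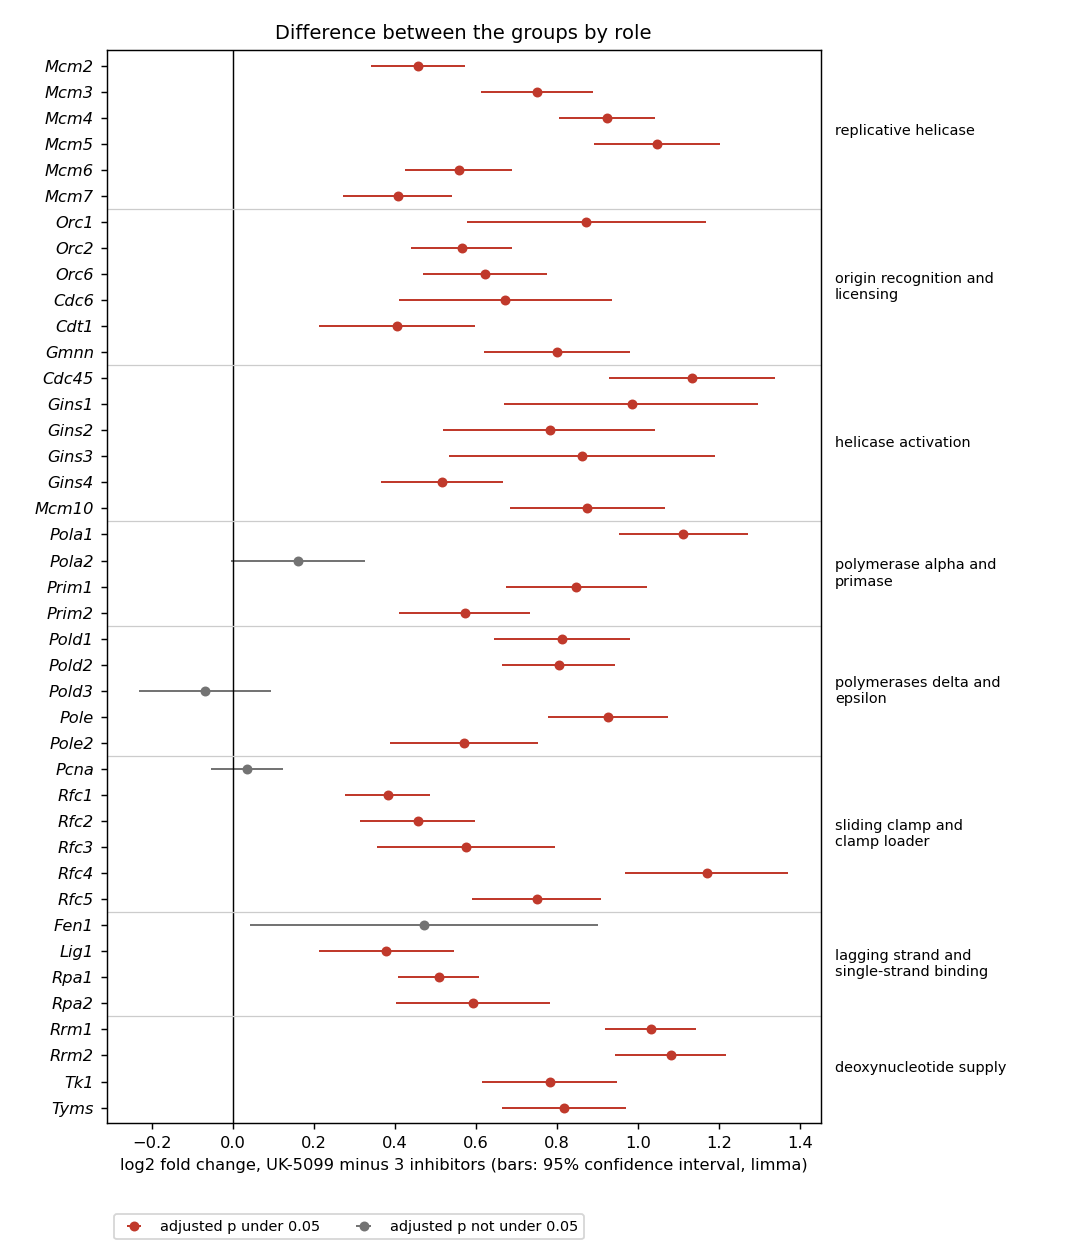
Log2 fold change of each of the 41 genes, UK-5099 minus 3 inhibitors, with its 95% confidence interval from limma and grouped by role; grey marks genes that did not pass the test. The 4 grey genes are Pola2, Pold3, Pcna and Fen1, and the values run from -0.07 for Pold3 to 1.17 for Rfc4.

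Ratios between subunits within each library do not depend on how libraries were scaled, so 28 were compared. The groups did not overlap in 18 of them, each at p = 0.1 in the exact permutation test (two-sided), the smallest that 3 against 3 libraries can give, with an adjusted p of 0.156 over the 28. No ratio could therefore reach 0.05, and the values are given with their spread. Taken singly, 30.7% of all genes tested lay above and 30.1% below in all 3 UK-5099 libraries. No such share was computed for other gene pairs, so the count of 18 cannot be read as particular to these genes. Several of the 28 ratios share genes, among them the 6 of the helicase ring, so they are not independent. The log2 ratio of Pola1 to Pola2 was 0.99, 1.07 and 0.71 with UK-5099 and 0.01, 0.02 and -0.11 with the 3 inhibitors, a difference of 0.95. Pold3 over Pold2 fell on the other side, at -0.62, -0.54 and -0.53 against 0.38, 0.25 and 0.30. In these pairs the difference between the group means was several times the SD within either group. Cdt1 over its inhibitor geminin was 0.70, 0.51 and 0.79 against 1.29, 0.84 and 1.05, so transcript of the inhibitor was higher relative to Cdt1 with UK-5099. Rfc4 was higher relative to Rfc1, Rfc2, Rfc3 and Rfc5 alike, with differences of -0.79, -0.71, -0.59 and -0.42 in the ratio of each to Rfc4.

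Within the helicase ring, each subunit was set against the mean of the other 5. Mcm5 gained most, from -0.42, -0.47 and -0.48 with the 3 inhibitors to 0.06, -0.03 and -0.11 with UK-5099. Mcm4 had a higher ratio with UK-5099 by 0.28, and Mcm2, Mcm6 and Mcm7 had lower ones, by -0.28, -0.16 and -0.34. Mcm3 differed by 0.07, and the groups did not overlap for any of the 6 subunits. Other ratios overlapped between the groups: Rrm1 over Rrm2 differed by -0.05, Pold1 over Pold2 by 0.01, Tk1 over Tyms by -0.04 and Rpa1 over Rpa2 by -0.09.

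**Figure D3:**
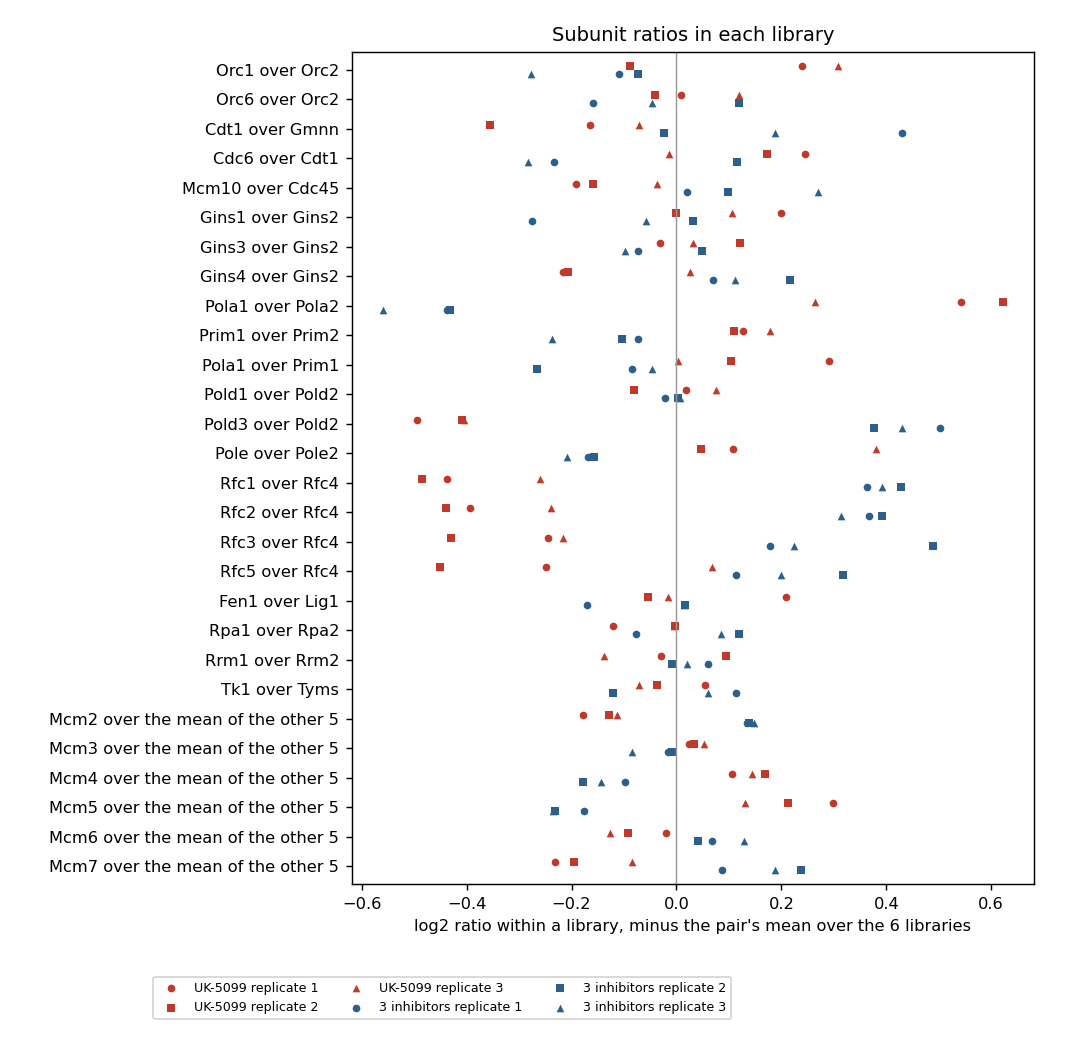
Log2 ratio of the paired genes in each library, with the mean of that pair over the 6 libraries subtracted; colours stand for the group and symbols for the replicate number. The groups lie farthest apart for Pola1 over Pola2 and Pold3 over Pold2, and they overlap for pairs such as Rrm1 over Rrm2.

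Libraries of a group also differed in these genes. UK-5099 replicate 1 was the highest of its group for 29 of the 41 genes, against 29.5% of all genes tested. UK-5099 replicate 2 was the lowest for 26, and 3-inhibitor replicate 3 was the lowest of its group for 26, against 40.5% and 38.8% of all genes tested. For the summed counts of the 41 genes this spread was small beside the gap between the groups (43046 to 46643 against 27103 to 28991). For single genes it was not always so. Cdt1 held 758, 637 and 777 normalized counts with UK-5099 and 599, 510 and 528 with the 3 inhibitors, and Pola2, Pold3 and Pcna overlapped. With each library left out in turn, between 37 and 39 of the 41 genes were called higher.

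Further genes that act at the fork differed mostly in the same direction. They were listed from general knowledge but with earlier results of these data known, as were the lists that follow. Their counts are therefore not independent of these data. Of 33 other fork and origin genes 27 were higher and 0 lower, against 27.2% and 26.6% of all genes tested. The count lower was also 0 at an unadjusted p under 0.05 and with limma-voom. The median log2 fold change of the 33 was 0.57. Examples are Clspn, a checkpoint mediator at forks (2.09-fold), Atad5, which unloads Pcna (1.92-fold), Mtbp, which helps to fire origins (1.90-fold), and Topbp1 (1.48-fold). Chtf8, at 7.58 ± 2.24 against 13.7 ± 4.72 normalized counts (SD, n = 3), had the lowest value of this list without passing the test (log2 fold change -0.76 ± 0.39, adjusted p = 0.128, limma). Of 12 genes that rebuild chromatin behind the fork, 10 were higher and 0 lower (0 by both other counts), against the same background shares. The 4 with the smallest adjusted p were Hells (1.97-fold), Uhrf1 (2.03-fold), Nasp (1.56-fold) and Chaf1a (1.87-fold). Slbp, which binds histone messenger RNA, stood at 877 and 885 normalized counts.

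Other nucleotide genes had smaller differences. Of 16 further deoxynucleotide genes 13 were higher and 0 lower (0 by both other counts), against 27.2% and 26.6% of all genes tested. The median log2 fold change of the 16 was 0.44. Dctd, which turns dCMP into the substrate of thymidylate synthase, was 1.85-fold higher, and Dtymk, which phosphorylates dTMP, 1.61-fold. Purine and pyrimidine synthesis had 18 of 23 genes higher and 0 lower (0 by both other counts), against the same shares of all genes tested. The median of the 23 was 0.36, with Impdh2 at 1.64-fold, Gart at 1.74-fold, Cad at 1.51-fold and Ctps at 1.42-fold.

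Lists of regulators held genes called in both directions, as did the background, in which 27.2% of all genes tested were higher and 26.6% lower. Among 18 E2F factors, their partners and pocket proteins, 10 were higher and 5 lower. The pocket protein Rbl1 was 1.69-fold higher, Mybl2 1.89-fold, E2f8 1.72-fold and Tfdp1 had a log2 fold change of 0.40, whereas E2f2 was 2.01-fold lower, at 70.8 ± 4.39 against 143.7 ± 16.2 normalized counts (SD, n = 3). Of 16 S phase kinases and regulators 9 were higher and 3 lower. Cyclin A2 (Ccna2) and Cks1b were 2.01-fold and 2.07-fold higher, and the CDK inhibitors Cdkn2a and Cdkn1a went in opposite directions, 4.17-fold higher and 1.50-fold lower. Of 9 checkpoint genes 5 were higher, among them Hus1 (log2 fold change 0.66) and Chek1 (1.22), and 1, Wee1, was lower at -0.20 (adjusted p = 0.0232, limma). The call of Wee1 ended in 6 alternatives, where 0 checkpoint genes were lower: without the variance trend, at a threshold of 0.01, and without UK-5099 replicate 1, UK-5099 replicate 2, 3-inhibitor replicate 1 or 3-inhibitor replicate 2. Translesion polymerases, which copy past damage, had 4 of 9 genes higher and 2 lower, with Polq 2.38-fold higher and Rev3l 1.32-fold lower. Genes of G2 and mitosis were higher in 20 of 20 cases with 0 lower (0 by both other counts), with a median log2 fold change of 0.98 beside the 0.75 of the replication genes. The 4 with the smallest adjusted p, the spindle factor Tpx2, topoisomerase Top2a, the anaphase activator Cdc20 and Hmmr, were 2.23-fold, 2.18-fold, 2.17-fold and 2.34-fold higher. Whether these medians differ was not tested.

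**Figure D4:**
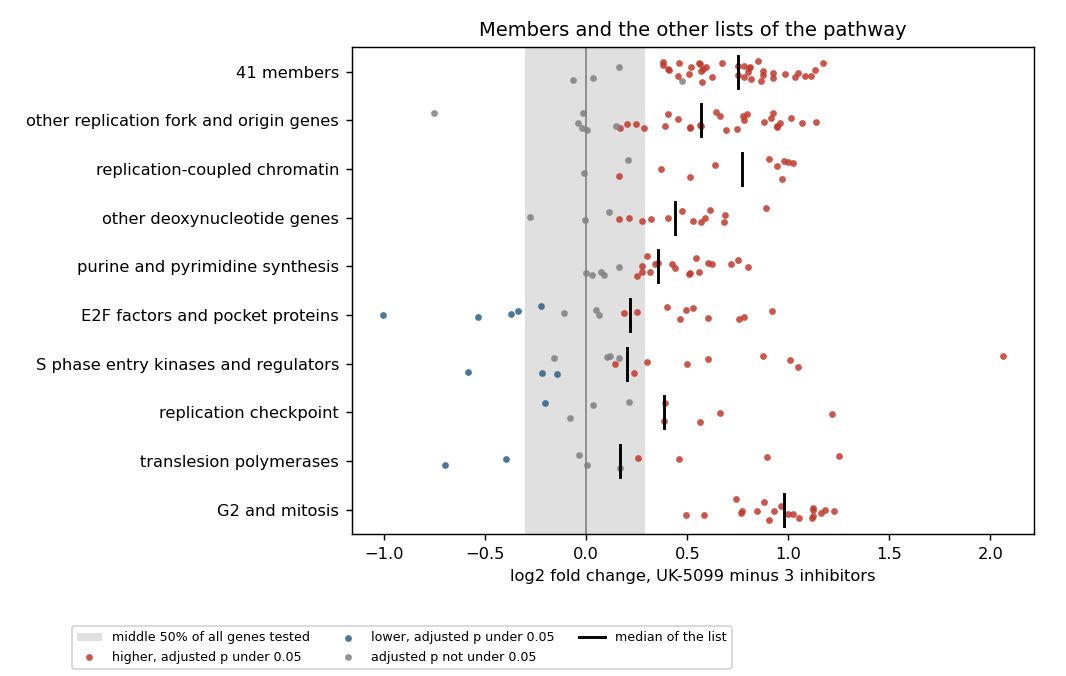
Log2 fold change, UK-5099 minus 3 inhibitors, of the 41 genes and of each other list; points are genes, black bars the list medians, the grey line the median of all genes tested and the grey band their middle 50%. The 41 genes lie to the right of the band except Pola2, Pold3 and Pcna, and the E2F list spreads to both sides.

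Cell identity markers moved beside these genes, and their part in the differences was not tested. Beside the counts of each marker list stand the 27.2% of all genes tested that were higher and the 26.6% that were lower. Of 10 basal cell markers 9 were tested, with 6 higher and 2 lower. Summed levels of the 10 were 283940 to 305860 normalized counts with UK-5099 and 150390 to 165100 with the 3 inhibitors, most of them from Krt5, Krt14 and Krt15. The lower markers were Ngfr (4.59-fold) and Aqp3 (1.35-fold), and Krt15 did not pass the test at 53435 and 56065. All 8 squamous and hillock markers were higher (sums 221700 to 237180 against 62277 to 67588), 7 of them at least 2-fold. The exception was Krt4, at 1.16-fold with overlapping groups (adjusted p = 0.0284, limma). The 4 secretory markers tested of 8 were lower (1489 to 2113 against 5863 to 6348). Fibroblast markers were near 0, with sums of 13.9 to 23.1 against 15.2 to 22.8, none of 7 tested and Col1a2, Col3a1 and Lum at 0. Among 9 multiciliated markers 3 were tested (123 to 135 against 95.6 to 151). Rsph1 was 1.76-fold higher (adjusted p = 0.00511, limma), and Ccdc39 and Tppp3 did not pass the test. Sntn was at 0 and Foxj1 at 0.339 and 3.23. Ionocyte, tuft and neuroendocrine markers summed to 123 to 141 against 222 to 256, with Foxi1 at 0, and the 3 tested of 10 (Cftr, Dclk1 and Insm1) were lower. Endothelial markers summed to 56.9 to 75.2 against 132 to 152, with Cdh5 at 0, and Vwf, which made most of the sum, was 2.51-fold lower. The 7 leukocyte markers summed to 487 to 695 against 492 to 529, mostly Cd68. Cd68 was the only one tested and did not pass (565 against 479, adjusted p = 0.126, limma). Lyz2, Csf1r and Cd79a, too low to be tested, had means of 0.309, 0 and 0 against 13.7, 6.98 and 5.39 (UK-5099 first). Their lowest 3-inhibitor values, all in replicate 3, were 9.14, 1.83 and 0.914. Ptprc (0.339 against 0.641) and Cd3e (0.812 against 1.20) were near 0 in both groups, and Adgre1 was at 0. Xist was 1.70-fold higher and the Y-linked Ddx3y 1.76-fold lower with UK-5099, and Pola1 lies on the X chromosome. Whether the groups held different shares of male and female cells, and what part that had in these values, was not tested.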

How the data were processed

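Total RNA of the 6 libraries was sequenced with a VAHTS kit, per the labels. The authors deposited log2 values of gene read counts, each scaled by the size factor of its library, and a text mark stands for 0 reads. In the submitters' processing notes HISAT2 2.1.0, DESeq2 1.36.0 and the build GRCm39 are listed without a role. The counting tool, annotation and strand setting were not given in the sources used here. Values were raised back to normalized counts, and 359 repeated identifiers were dropped from 57107 entries. Of the nonzero values, 99.987% to 99.992% per library were whole multiples of 1 read (within 0.02), so reads could be recovered. Genes averaging 10 or more normalized counts (15704) were fitted as log2(normalized count + 1) with limma 3.58.1 in R 4.3.3 (variance trend, two-sided), and an adjusted p under 0.05 was called. Fold changes are on this scale, which understates those of low genes. The fit was tested on simulated data. As an alternative, limma-voom on recovered reads called 4332 genes higher and 4238 lower, against 4275 and 4174. Other alternatives were 2 rescalings, 2 filters, pseudocounts of 0.5 and 5, other variance models, a threshold of 0.01, a block for the replicate number, and fits lacking 1 library. Named genes were the 41, up to 4 called genes per list with the smallest adjusted p, and a gene moving alone against its list. Chtf8, Slbp, E2f2 and the single marker genes were named after their values were seen. The members and lists were chosen with earlier results of these data known. Tubb1, in the multiciliated list, does not mark those cells and was at 0. A result for 1 gene of the deoxynucleotide list is not reported here. GENCODE M21 gave exon lengths and overlaps, and RefSeq the promoters (both GRCm38). Drawing and tables used Python 3.11.15, numpy 2.4.6, pandas 2.3.3 and matplotlib 3.10.9.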

Additional observations from a re-analysis of the deposited data

How the results depend on the processing

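Over 17 alternatives, 37 of the 41 genes kept their call and direction in each one that tested them, and the count called higher ran from 37 to 39. The scaling moved the background: of all called genes 50.6% were higher, 39.1% after median centring and 54.5% after upper-quartile rescaling, while 37 and 39 of the 41 were called higher. Pcna changed sign without passing the test after median centring (-0.053), and the Pold3 log2 fold change ran from -0.103 to 0.0 over the fits that left out a library, highest without 3-inhibitor replicate 1. Pola2 and Fen1 passed the test in some alternatives, given beside their values. The count of checkpoint genes called lower went from 1 to 0 without the variance trend and at a threshold of 0.01, and from 0 to 1 over the fits that left out a library. Same-numbered libraries did not deviate together (correlations of -0.02, 0.12 and -0.09), and with the replicate number as a block 37 of the 41 genes were called higher, with 4275 higher and 4148 lower over all genes. Fen1 was under the minimum mean of 50 and could not be fitted there, and lower counts limit the precision of Gins3, Gins1 and Orc1 (SE of 0.15, 0.14 and 0.13).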
